A study of Capra hircus with 6 samples.

Results

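Autophagy delivers cytoplasmic cargo to the lysosome, and 44 genes of its machinery were followed in knockdown lines of the goat cell line mGSCs-I-SB. The set was chosen by function, with earlier results of these data known. It holds the chaperone-mediated autophagy receptor LAMP2, the core genes that build, load and fuse the autophagosome, and the MiT/TFE transcription factors. Of the 44 genes, 43 have values in the deposited table, which holds values for 16599 entries, and these 43 passed the filter on low counts and were tested. PIK3R4, which encodes a subunit of the class III phosphatidylinositol 3-kinase, is not analysed here. The line shUCHL1 carries a knockdown of UCHL1, a ubiquitin hydrolase, the line shHSPA8 a knockdown of HSPA8, the constitutive cytosolic HSP70 chaperone, and the control line shCON is labelled wild type, with 2 RNA-seq libraries from each. All were grown in DMEM/F12 with fetal bovine serum. Hairpin number, and clonal or pooled origin of a line, are not stated in the labels. Nor do they state separate cultures for the paired libraries of a line, so each p-value reflects library-to-library spread that may be technical only.

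In macroautophagy, the ULK1 kinase complex starts a membrane sac, a lipid kinase complex built around BECN1 and ATG14 marks it with phosphatidylinositol 3-phosphate, and ubiquitin-like conjugation systems couple Atg8 proteins such as LC3 to its membrane. Cargo receptors bind ubiquitinated proteins on one side and Atg8 proteins on the other, and RAB7A and STX17 serve the fusion of the closed autophagosome with the lysosome. Chaperone-mediated autophagy uses no vesicle: HSPA8 brings single proteins to the LAMP2A form of LAMP2 at the lysosomal membrane, which takes them in. The shHSPA8 line thus targets the chaperone that serves this route. The levels below are levels of messenger RNA, not of proteins or of autophagic flux.

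The total read count per library was 15710532 to 16417274. UCHL1 stood at 94.3 and 97.7 CPM (read counts scaled to the library total with TMM factors) in shUCHL1, at 386 and 334 CPM in shHSPA8 and at 405 and 451 CPM in shCON, and HSPA8 at 5252 and 5345 CPM in shUCHL1, 2631 and 2528 CPM in shHSPA8 and 4016 and 4112 CPM in shCON. Both target genes were thus lower in the line named for them, UCHL1 with a log2 fold change of -2.16 and HSPA8 with one of -0.66 against shCON (edgeR adjusted p = 1.13e-04 and 0.00126). HSPA8 was called higher in shUCHL1 (log2 fold change 0.38, edgeR adjusted p = 0.0129), a call lost without either shUCHL1 library (adjusted p up to 0.175). The cells are labelled spermatogonial stem cells, but of 18 germ-line markers 11 have values, the other 7 are not analysed here, and 5 exceeded 1 CPM in all libraries. Among those 5, THY1 stood at 61.5 to 169 CPM, ITGA6 at 59.2 to 121 CPM, ETV5 at 9.99 to 13.3 CPM and ID4 at 1.96 to 10.2 CPM. The list, which holds the targeted UCHL1, summed to 243 to 244 CPM in shUCHL1, 615 to 657 CPM in shHSPA8 and 660 to 705 CPM in shCON. Single germ-line markers moved in both directions: in shUCHL1 against shCON UCHL1 and THY1 were called lower and ID4 and RET higher. In shHSPA8 against shCON ID4 was called higher and none lower. Against shHSPA8, UCHL1, THY1 and ITGA6 were called lower in shUCHL1 and none higher. DDX4, the germ-cell RNA helicase, reached 0.428 to 1.95 CPM and KIT at most 0.0647 CPM, whereas COL1A1, a fibroblast collagen, stood at 7629 to 10351 CPM. The 10 markers of myoid cells and fibroblasts, 8 of them above 1 CPM in all libraries, summed to 21550 to 22111 CPM in shUCHL1, 25675 to 25988 CPM in shHSPA8 and 17498 to 19068 CPM in shCON. Its genes went both ways: in shUCHL1 against shCON COL3A1 and DCN were called higher and ACTA2, CNN1, DES and TAGLN lower, and against shHSPA8 5 were called lower and none higher. In shHSPA8 against shCON 3 were called higher and none lower. The 8 Sertoli markers, 7 of them with values, summed to 136 CPM in each shUCHL1 library, 91.9 to 92.7 CPM in shHSPA8 and 180 to 188 CPM in shCON. Markers of the germ line, of Sertoli cells and of myoid cells and fibroblasts thus moved with the lines. Their part in the results was not tested. In bulk RNA, fewer cells of a type and less RNA per cell cannot be told apart.

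A gene is called where the adjusted p of edgeR's quasi-likelihood test, over all 12665 genes tested, is below 0.05. In shUCHL1 against shCON, 6 of 43 genes were called (14.0%), against 15.7% of all genes tested. ATG14, WIPI1 and ULK1 were higher, against a background of 8.54% called higher, and RAB7A, OPTN and EEF1A1 were lower, against 7.15% called lower. In shHSPA8 against shCON, 3 of 43 were called (6.98%), against 14.7% of all genes: WIPI1 was higher (background 8.66%), and ATG4C and OPTN were lower (background 6.02%). The comparisons with shCON share the control libraries. In shUCHL1 set directly against shHSPA8, 4 of 43 were called (9.3%), against 14.6% of all genes: ATG4C, ATG14 and GABARAPL1 were higher (background 6.20%) and RAB7A was lower (background 8.35%).

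The changes were small. None of the 43 genes differed by 1.5-fold or more in shUCHL1 against shCON, where 17.0% of all genes did, and 1 did in shHSPA8 against shCON, where 16.4% of all genes did. The median log2 fold change of the autophagy genes was 0.09 in shUCHL1 against shCON and 0.03 in shHSPA8 against shCON, beside 0.01 and -0.00 over all genes, and the range was -0.52 to 0.47 and -0.63 to 0.46. Their median standard error was 0.12 in each comparison. The libraries of shUCHL1 and shCON did not overlap for 22 of 43 genes (background 56.5%), 17 of them higher in shUCHL1 (background 29.5%) and 5 lower (background 27.0%). For shHSPA8 and shCON this held for 17 of 43 (background 51.0%), 8 higher (background 26.1%) and 9 lower (background 24.9%). For shUCHL1 and shHSPA8 it held for 30 of 43 (background 65.7%), 22 higher (background 33.9%) and 8 lower (background 31.8%). The number of separated genes was thus near or below the background, while more of them were higher than lower in shUCHL1. On simulated counts for shUCHL1 against shCON, with a gene's spread set alike in all lines, 26 of 67 genes changed by 1.5-fold were recovered. Of those changed by 2-fold, 66 of 67 were recovered. Many changes of the size seen here could thus be missed.

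**Figure D1:**
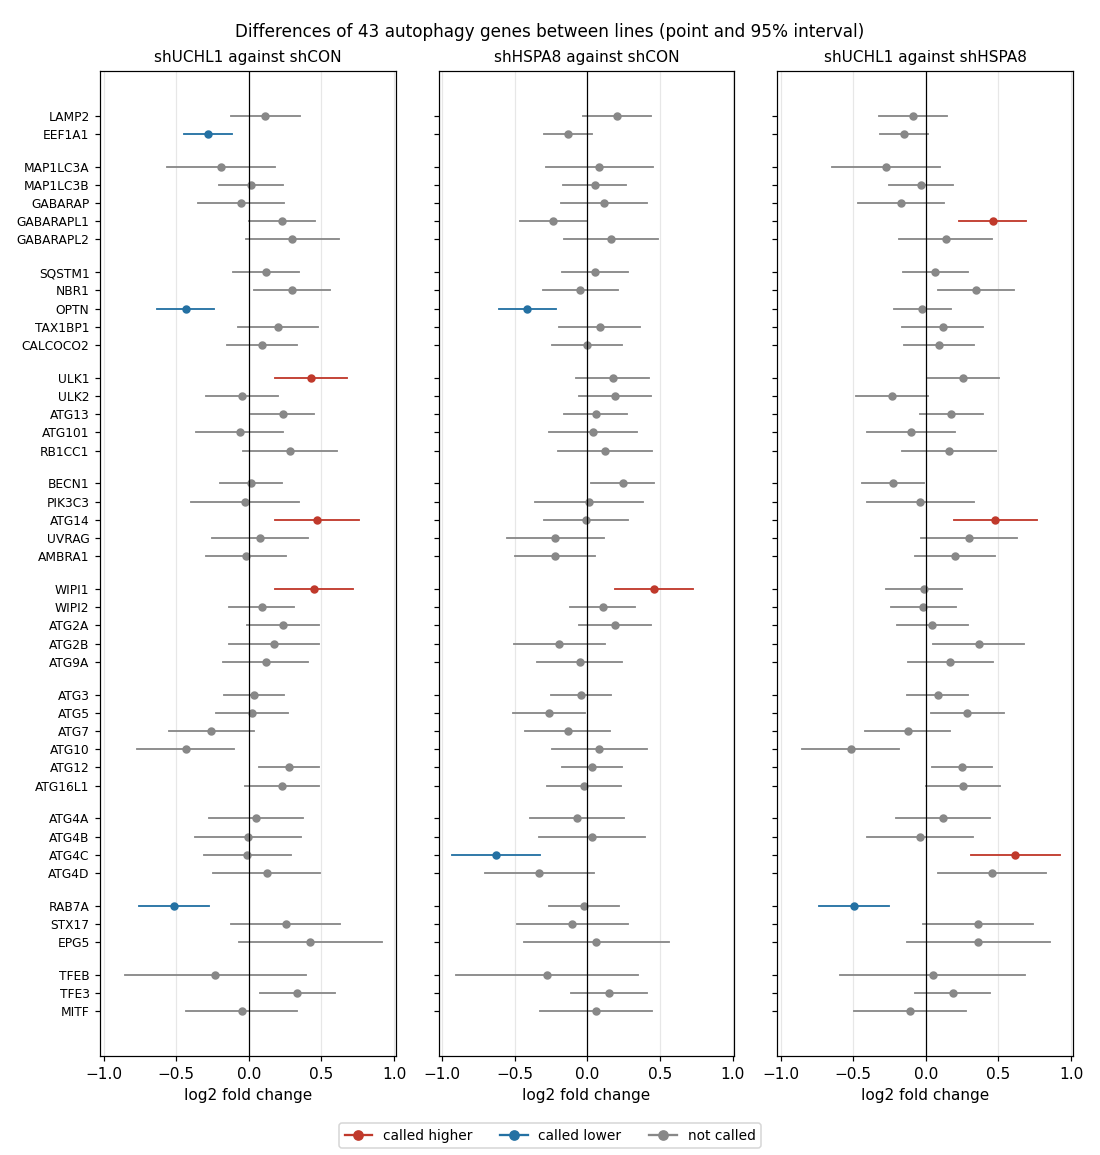
The log2 fold change (x axis) of each of the 43 autophagy genes (rows, grouped by role) in shUCHL1 against shCON, shHSPA8 against shCON and shUCHL1 against shHSPA8, as points with 95% intervals, red where called higher, blue where called lower and grey where not called. The called genes are 6, 3 and 4 of 43, and the points lie between -0.63 and 0.62.

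By the authors' FPKM, a level per transcript length, EEF1A1 led the set at a median of 2110 FPKM over the 6 libraries, followed by GABARAP at 186 FPKM, RAB7A at 156 FPKM, GABARAPL2 and SQSTM1 at 133 FPKM each, and LAMP2 at 95.1 FPKM. The ranges of these neighbours overlap: GABARAP spanned 163 to 206 FPKM, RAB7A 123 to 183 FPKM, GABARAPL2 105 to 140 FPKM and SQSTM1 116 to 145 FPKM. GABARAPL2 has an implied length of only 158 bases, against 662 bases for GABARAP, so its place in this order is uncertain. At the low end stood STX17 at 3.04 FPKM, TFEB at 2.66 FPKM and EPG5, a tether of late endosomes, at 2.49 FPKM.

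**Figure D2:**
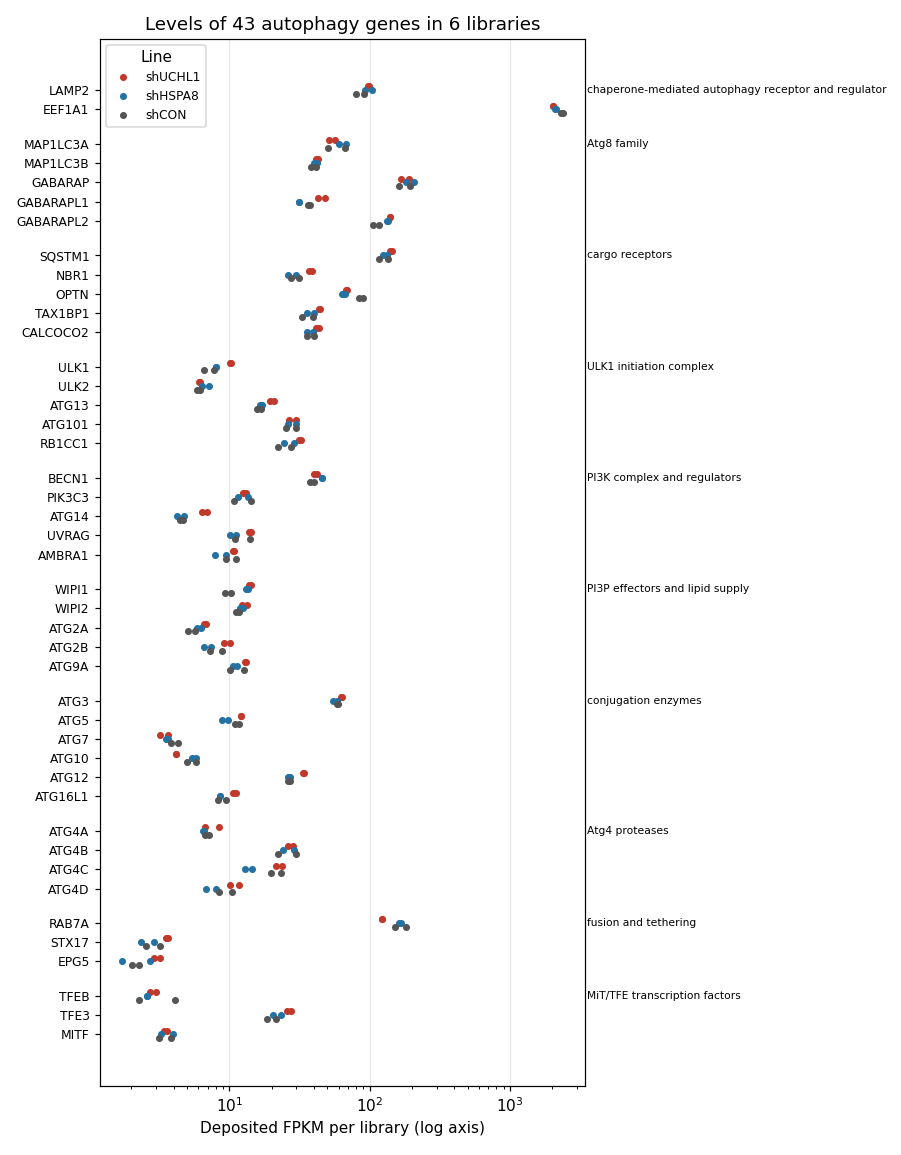
Deposited FPKM (x axis, log scale) of the 43 autophagy genes (rows, grouped by role), with 1 point per library and colours for shUCHL1, shHSPA8 and shCON. EEF1A1 lies at 2027 FPKM or more in every library, and EPG5 reaches 1.72 FPKM in 1 shHSPA8 library.

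LAMP2, the receptor of chaperone-mediated autophagy, had 317 and 309 CPM in shUCHL1, 312 and 354 CPM in shHSPA8 and 307 and 272 CPM in shCON. Every knockdown library lay above both control libraries, but by less than the test could call. The log2 fold change was 0.11 in shUCHL1 against shCON (95% interval -0.12 to 0.35, edgeR adjusted p = 0.509) and 0.20 in shHSPA8 against shCON (95% interval -0.03 to 0.44, adjusted p = 0.231). In the authors' deposited table, the log2 ratios of LAMP2 are 0.09 (p = 0.498) and 0.19 (p = 0.238). The counts are per gene, so the LAMP2A, LAMP2B and LAMP2C splice forms, of which LAMP2A is the receptor, are not separated.

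EEF1A1, a translation elongation factor that has also been described as a modulator of the LAMP2A complex at the lysosome, fell in shUCHL1. Its level was 8952 and 8921 CPM in shUCHL1, 9946 and 9902 CPM in shHSPA8, and 11140 and 10610 CPM in shCON. No library of one line overlapped those of another. On the log2 scale EEF1A1 changed by -0.28 ± 0.07 (SE) in shUCHL1 against shCON (adjusted p = 0.037) and -0.13 ± 0.07 in shHSPA8 against shCON (adjusted p = 0.271). With library size alone in place of TMM the call was lost (adjusted p = 0.109), as it was without any one of the 4 knockdown libraries, where adjusted p reached 0.26. With only the lines compared the EEF1A1 call was lost too (adjusted p = 0.0755). EEF1A1 has many near-identical copies in mammalian genomes, so how reads were shared among them is uncertain. Its counts carry no decimal fraction in any library, which does not settle how such reads were assigned.

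Of 18 chaperone-mediated autophagy partners, chosen for known roles as co-chaperones or regulators and with earlier results known, 17 were tested. In each comparison with shCON, 3 of 17 were called (backgrounds 15.7% in shUCHL1 and 14.7% in shHSPA8). The 3 in shHSPA8 include the targeted HSPA8, whose lower level follows from the knockdown. In shUCHL1 against shCON HSPA8 itself and BAG3 were higher and RAC1 was lower. BAG3, a co-chaperone that steers HSP70 clients to macroautophagy, had 123 and 122 CPM in shUCHL1 against 90.9 and 98.5 CPM in shCON (log2 fold change 0.37, adjusted p = 0.0309), with no overlap. RAC1, a small GTPase placed at the lysosomal membrane in work on the mTORC2 and PHLPP1 control of this route, had 307 and 319 CPM in shUCHL1 against 394 and 434 CPM in shCON (log2 fold change -0.40, adjusted p = 0.0203). In shHSPA8 against shCON, the targeted HSPA8 was lower, and DNAJB1 (log2 fold change 0.60, adjusted p = 0.0168) and HSP90AA1 (log2 fold change 0.39, adjusted p = 0.0188) were higher. DNAJB1, an HSP40 partner of HSP70, had 189 and 173 CPM in shHSPA8 against 108 and 132 CPM in shCON. The median log2 fold change of this list was 0.05 in shUCHL1 and 0.04 in shHSPA8, beside 0.01 and -0.00 over all genes. The calls of RAC1 and BAG3 were lost without either shUCHL1 library (adjusted p up to 0.217 and 0.284), that of BAG3 also without either shHSPA8 library or shCON replicate 1, with DESeq2 and with only the lines compared. HSP90AA1 and DNAJB1 lost theirs without shHSPA8 replicate 1 or either of the shUCHL1 libraries, and HSP90AA1 also without shHSPA8 replicate 2. With only the lines compared, HSP90AA1 and DNAJB1 lost their calls too. With a replicate block RAC1, BAG3 and HSP90AA1 lost theirs, and with library size alone RAC1 did.

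The Atg8 genes, whose products sit on the autophagosome membrane and bind cargo receptors, were not called in either comparison with shCON. MAP1LC3B, the LC3 most often used as an autophagosome marker, had 77.2 and 74.4 CPM in shUCHL1, 79.3 and 76.0 CPM in shHSPA8 and 71.7 and 78.3 CPM in shCON. The lines overlapped, and the 95% interval of the log2 difference ran from -0.20 to 0.23 in shUCHL1 and from -0.17 to 0.27 in shHSPA8 against shCON. MAP1LC3A, a second LC3 gene, had 31.8 and 34.2 CPM in shUCHL1, 41.7 and 38.1 CPM in shHSPA8 and 31.7 and 43.6 CPM in shCON, so the control libraries held both the lowest and the highest value. GABARAP had 109 and 122 CPM in shUCHL1, 137 and 123 CPM in shHSPA8 and 109 and 132 CPM in shCON. Its knockdown libraries lay within or near the range of shCON, with those of shUCHL1 below those of shHSPA8, a difference that was not called (log2 difference -0.17, adjusted p = 0.403).

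GABARAPL1, a GABARAP relative that serves late steps of autophagosome formation, was the Atg8 gene called between the knockdown lines. It had 56.8 and 63.4 CPM in shUCHL1, 43.3 and 44.03 CPM in shHSPA8 and 51.7 and 50.9 CPM in shCON. The shUCHL1 libraries lay above and the shHSPA8 libraries below the control libraries. The direct log2 difference, shUCHL1 against shHSPA8, was 0.46 ± 0.10 (SE, adjusted p = 0.0232), while the log2 fold changes against shCON were 0.23 (adjusted p = 0.172) in shUCHL1 and -0.23 (adjusted p = 0.167) in shHSPA8. Without any one of the 4 knockdown libraries the direct difference lost its call (adjusted p up to 0.253). GABARAPL2, with 22.5 and 22.4 CPM in shUCHL1, 20.4 CPM in each shHSPA8 library and 16.1 and 20.4 CPM in shCON, was not called (log2 fold change 0.30 and 0.16 against shCON). It became so in shUCHL1 without shCON replicate 2 (log2 fold change 0.48). With the length trend removed, GABARAPL2 was called higher in shUCHL1 against shCON (log2 fold change 0.41, edgeR adjusted p = 0.0276). In that fit it was also called higher against shHSPA8 (0.36, adjusted p = 0.0436). Whether it is called thus depends on the control library and on the length correction.

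Of the ubiquitin-binding cargo receptors, OPTN fell in both knockdown lines and the others were not called. OPTN, which links ubiquitinated mitochondria and bacteria to Atg8 proteins, had 139 and 142 CPM in shUCHL1, 146 and 140.4 CPM in shHSPA8 and 197 and 184 CPM in shCON. The knockdown libraries did not overlap the control libraries and overlapped each other. Its log2 fold change was -0.44 ± 0.08 (SE, adjusted p = 0.0148) in shUCHL1 and -0.41 ± 0.08 (adjusted p = 0.0184) in shHSPA8 against the shared shCON. The direct difference was -0.02 (95% interval -0.22 to 0.17). With only the lines compared, the OPTN call in shHSPA8 was lost (adjusted p = 0.0721). OPTN lost its call in shUCHL1 without either shUCHL1 library, with an adjusted p of up to 0.169, and in shHSPA8 without any one of the 4 knockdown libraries, with an adjusted p of up to 0.121.

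SQSTM1, which encodes p62, the receptor that gathers ubiquitinated proteins and is itself degraded by autophagy, had 257 and 265 CPM in shUCHL1, 256 and 243 CPM in shHSPA8 and 223 and 258 CPM in shCON. Each knockdown line overlapped shCON, and the log2 fold change was 0.12 (95% interval -0.11 to 0.34) in shUCHL1 and 0.05 (95% interval -0.17 to 0.28) in shHSPA8 against shCON. NBR1, a p62 partner, had 162 and 155 CPM in shUCHL1, 117 and 133 CPM in shHSPA8 and 138 and 119.5 CPM in shCON. Its shUCHL1 libraries lay above all others, but the log2 fold change of 0.30 against shCON and the direct difference of 0.35 against shHSPA8 were not called (adjusted p = 0.12 and 0.0799). TAX1BP1 and CALCOCO2, receptors with roles in the removal of bacteria, had log2 fold changes of 0.20 and 0.09 in shUCHL1 and of 0.09 and -0.00 in shHSPA8 against shCON, none of them called.

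**Figure D3:**
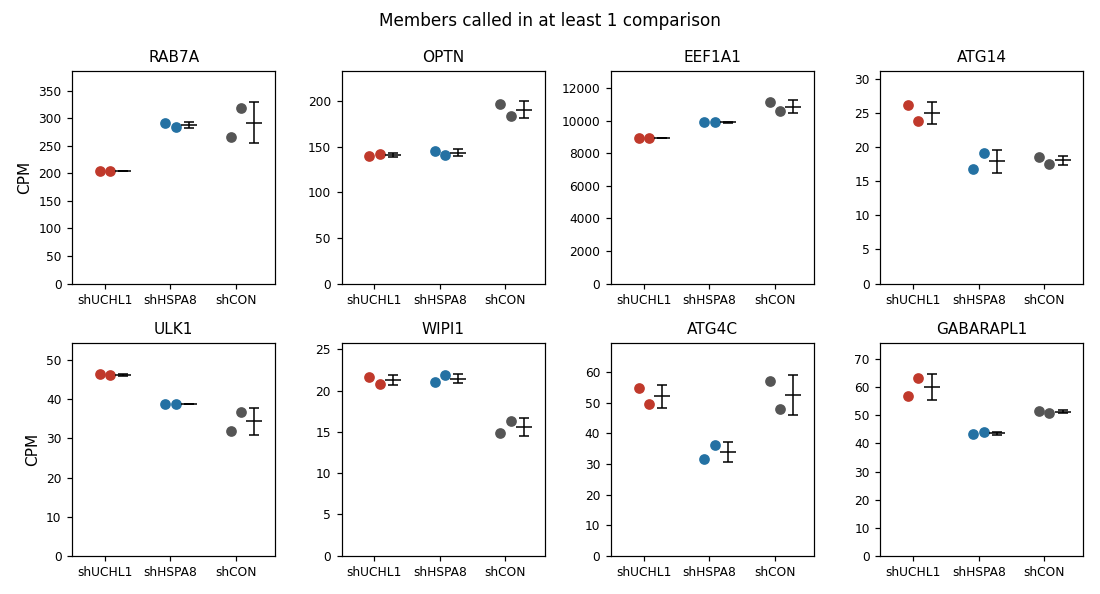
CPM (y axis, from 0) of the 8 autophagy genes called in at least 1 comparison, with 1 point per library of shUCHL1, shHSPA8 and shCON, and beside them the mean with a bar of 1 SD (n = 2). RAB7A is lower in shUCHL1 alone, OPTN is lower and WIPI1 higher in both knockdown lines than in shCON, and ATG4C is lower in shHSPA8.

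Among the initiating genes, ULK1, the kinase that starts autophagosome formation and is itself controlled by mTORC1 and AMPK, was higher in shUCHL1. It had 46.4 and 46.1 CPM in shUCHL1, 38.7 and 38.8 CPM in shHSPA8 and 31.8 and 36.8 CPM in shCON. The lines did not overlap, with shHSPA8 in the middle. For ULK1 the log2 fold change was 0.43 ± 0.11 (SE, adjusted p = 0.0358) in shUCHL1 and 0.17 ± 0.11 (adjusted p = 0.334) in shHSPA8 against shCON, and the direct difference was 0.26 (adjusted p = 0.149). The partners of ULK1 were not called: ATG13 and RB1CC1, which encodes the scaffold FIP200, had log2 fold changes of 0.23 and 0.28 in shUCHL1 and 0.06 and 0.12 in shHSPA8 against shCON, and ULK2 and ATG101 lay between -0.06 and 0.19. ULK1 lost its call without any one library other than shCON replicate 2 (adjusted p up to 0.269) and with the length trend removed (adjusted p = 0.0863), DESeq2 (0.0805), no low-count filter (0.0504) and only the lines compared (0.0618).

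ATG14, the subunit that directs the lipid kinase complex to the site of autophagosome formation, was higher in shUCHL1 than in either other line. It had 26.1 and 23.9 CPM in shUCHL1, 16.8 and 19.1 CPM in shHSPA8 and 18.6 and 17.6 CPM in shCON. Both shUCHL1 libraries lay above all others, and the shHSPA8 and shCON libraries overlapped. ATG14 had a log2 fold change of 0.47 ± 0.12 (SE, adjusted p = 0.042) against shCON and 0.48 ± 0.12 (adjusted p = 0.0418) against shHSPA8. The call against shCON was lost in each of the 6 fits without 1 library (adjusted p 0.0505 to 0.335), and that against shHSPA8 without any one of the 4 knockdown libraries (adjusted p up to 0.316). With DESeq2 both calls were lost (adjusted p = 0.116 and 0.0953), as they were with no low-count filter (0.0554 and 0.0535). The call against shCON was also lost with only the lines compared (adjusted p = 0.0569). ATG14 is the partner of BECN1 in this complex, whereas UVRAG is its partner in a second complex that acts later, and UVRAG was not called (log2 fold change 0.08 in shUCHL1 and -0.22 in shHSPA8 against shCON).

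BECN1, the scaffold of both complexes, had 72.6 and 69.4 CPM in shUCHL1, 82.5 and 83.7 CPM in shHSPA8 and 73.1 and 67.5 CPM in shCON. The shHSPA8 libraries lay above the other 4, with a log2 fold change of 0.24 (95% interval 0.03 to 0.46) against shCON that did not pass the adjustment (adjusted p = 0.129). In shUCHL1 the log2 fold change was 0.02 (95% interval -0.20 to 0.23). PIK3C3, the catalytic subunit, and AMBRA1, a regulator of BECN1, lay between -0.22 and 0.01 against shCON and were not called.

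WIPI1, which binds phosphatidylinositol 3-phosphate on the forming sac, was higher in both knockdown lines. It had 21.7 and 20.8 CPM in shUCHL1, 21.1 and 21.9 CPM in shHSPA8 and 14.8 and 16.3 CPM in shCON. The knockdown libraries lay above the control libraries and overlapped each other. WIPI1 had a log2 fold change of 0.45 ± 0.11 (SE, adjusted p = 0.0396) in shUCHL1 and 0.46 ± 0.11 (adjusted p = 0.0379) in shHSPA8, against the shared shCON, and each call was lost without any one library other than shCON replicate 2 (adjusted p up to 0.308 and 0.168). With DESeq2 both calls were lost (adjusted p = 0.149 and 0.115), as they were with only the lines compared (0.0697 and 0.123), and the call in shUCHL1 also with no low-count filter (0.0524). WIPI2, which recruits ATG16L1, had log2 fold changes of 0.09 and 0.10, and ATG2A, ATG2B and ATG9A, which carry lipid to the sac, had 0.11 to 0.24 in shUCHL1 and -0.19 to 0.19 in shHSPA8. None of these was called.

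The 6 conjugation genes, whose enzymes attach ATG12 to ATG5 and Atg8 proteins to lipid, held no call. ATG10, the E2-like enzyme that joins ATG12 to ATG5, came nearest: it had 7.58 and 7.55 CPM in shUCHL1, 10.2 and 11.4 CPM in shHSPA8 and 9.56 and 10.9 CPM in shCON. The shUCHL1 libraries lay below all others. The log2 fold change was -0.44 (95% interval -0.77 to -0.10, adjusted p = 0.0844) against shCON and -0.52 (95% interval -0.85 to -0.19, adjusted p = 0.0518) against shHSPA8. ATG12 itself had 69.0 and 70.1 CPM in shUCHL1, 59.2 and 58.0 CPM in shHSPA8 and 58.5 and 56.3 CPM in shCON, with the shUCHL1 libraries above the rest and a log2 fold change of 0.28 against shCON (adjusted p = 0.0762). ATG5 had 32.6 and 32.8 CPM in shUCHL1, 25.5 and 28.1 CPM in shHSPA8 and 33.4 and 31.0 CPM in shCON, lowest in shHSPA8 (log2 fold change -0.26, adjusted p = 0.151). ATG3, ATG7, the E1-like enzyme, and ATG16L1 had log2 fold changes of -0.26 to 0.23 in the comparisons with shCON.

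ATG4C, a protease that trims Atg8 proteins and frees them from the membrane, fell in shHSPA8 and had the widest difference of the set against shCON. It had 54.9 and 49.5 CPM in shUCHL1, 31.7 and 36.3 CPM in shHSPA8 and 57.2 and 48.0 CPM in shCON. The shHSPA8 libraries lay below the other 4, and shUCHL1 overlapped shCON. This was a log2 fold change of -0.63 ± 0.13 (SE), or a 1.54-fold lower level (adjusted p = 0.0192), and the direct difference, shUCHL1 against shHSPA8, was 0.62 ± 0.13 (adjusted p = 0.0223). Of the 6 fits without 1 library, the call against shCON was lost in 1, that without shHSPA8 replicate 1 (adjusted p = 0.115), while the direct call was lost without any one of the 4 knockdown libraries (adjusted p up to 0.191). The level of ATG4D, a paralog, was 18.1 and 21.0 CPM in shUCHL1, 15.3 and 13.2 CPM in shHSPA8 and 16.0 and 19.9 CPM in shCON. It too was lowest in shHSPA8 but was not called (log2 fold change -0.33 against shCON, adjusted p = 0.223). ATG4A and ATG4B, the protease with the broadest range of Atg8 substrates, lay between -0.07 and 0.05 against shCON.

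RAB7A, the late endosomal GTPase that brings tethers and motors to autophagosomes and lysosomes, fell in shUCHL1. It had 204 CPM in each shUCHL1 library, 291 and 284 CPM in shHSPA8 and 265 and 318 CPM in shCON. The shUCHL1 libraries lay below the other 4, while the shHSPA8 libraries lay between the control libraries. The log2 fold change was -0.52 ± 0.10 (SE), a 1.43-fold lower level (adjusted p = 0.0164), and -0.49 ± 0.10 against shHSPA8 (adjusted p = 0.0217). The call against shCON was lost without either shUCHL1 library (adjusted p up to 0.144), and that against shHSPA8 without any one of the 4 knockdown libraries (adjusted p up to 0.189). STX17, the autophagosomal SNARE, and EPG5 had log2 fold changes of 0.25 and 0.42 in shUCHL1 and of -0.10 and 0.06 in shHSPA8, none called. EPG5 had 28.9 and 26.0 CPM in shUCHL1, 16.5 and 26.2 CPM in shHSPA8 and 21.8 and 19.2 CPM in shCON, a wide spread within shHSPA8.

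The MiT/TFE factors bind the promoters of lysosomal and autophagy genes, and none of the 3 was called. TFEB had 5.68 and 5.16 CPM in shUCHL1, 5.18 and 5.30 CPM in shHSPA8 and 4.56 and 8.14 CPM in shCON. The control libraries lay on either side of all others, with 72 and 133 reads. The 95% interval of the log2 difference was therefore wide, -0.85 to 0.39 in shUCHL1 and -0.91 to 0.35 in shHSPA8, and without shCON replicate 1 TFEB was called lower in both lines (log2 fold change -0.61 and -0.65, adjusted p = 0.0455 and 0.0457).

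TFE3 had 74.3 and 79.3 CPM in shUCHL1, 71.5 and 63.7 CPM in shHSPA8 and 57.0 and 64.9 CPM in shCON. Its shUCHL1 libraries lay above all others (log2 fold change 0.33 against shCON, 95% interval 0.07 to 0.59, adjusted p = 0.0877). MITF had 15.9 and 15.2 CPM in shUCHL1, 15.0 and 18.7 CPM in shHSPA8 and 18.0 and 14.3 CPM in shCON, with overlap between all lines.

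**Figure D4:**
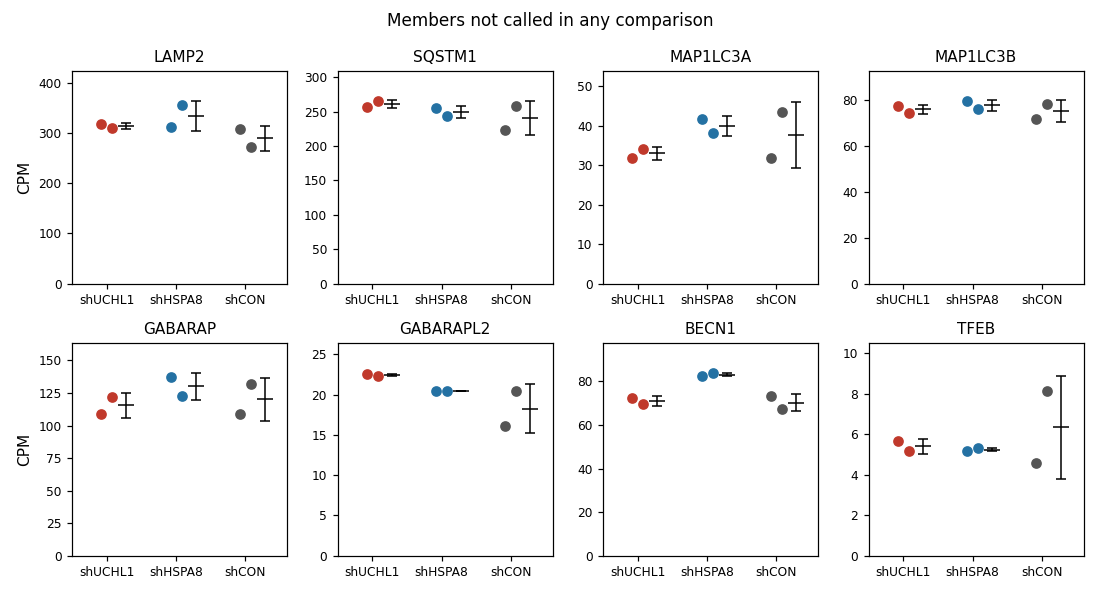
CPM (y axis, from 0) of named autophagy genes that were not called in any comparison, with 1 point per library of shUCHL1, shHSPA8 and shCON, and beside them the mean with a bar of 1 SD (n = 2). TFEB shows the 2 control libraries apart, at 4.56 and 8.14 CPM, with the knockdown libraries between them.

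Genes around the core machinery were counted from lists chosen by function, with earlier results of these data known. Their counts beside the background are thus a description only. Of 15 tested autophagy receptors outside the set, 3 were higher (background 8.54%) and none lower (background 7.15%) in shUCHL1 against shCON, and none was called in shHSPA8 against shCON (background 14.7%). STBD1, a receptor for glycogen, had 6.90 and 7.43 CPM in shUCHL1, 2.34 and 2.65 CPM in shHSPA8 and 0.95 and 1.53 CPM in shCON (log2 fold change 2.52 in shUCHL1, adjusted p = 9.02e-04, called in each of the 6 fits without 1 library). BNIP3 and BNIP3L, receptors on mitochondria, had log2 fold changes of 0.47 and 0.53 in shUCHL1 (adjusted p = 0.0288 and 0.00885), both lost without either shUCHL1 library (adjusted p up to 0.222 and 0.125). All 3 were also higher in shUCHL1 than in shHSPA8. The median over the 15 was 0.06 in shUCHL1 and 0.04 in shHSPA8.

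Of 17 other core autophagy genes, 1 was called in shUCHL1 (background 15.7%) and 2 in shHSPA8 (background 14.7%) against shCON. ATG16L2, an ATG16L1 paralog, was higher in shUCHL1 (log2 fold change 0.77, adjusted p = 0.00889), with 29.0 and 28.1 CPM in shUCHL1 against 15.1 and 18.4 CPM in shCON. In shHSPA8 against shCON, TP53INP2, a nuclear LC3 partner, was lower (log2 fold change -0.53, adjusted p = 0.00895) and MAP1LC3C, a further LC3 gene, was called higher on 16 and 10 reads in shHSPA8 against 3 and 2 reads in shCON. Of 15 fusion genes, 1 was called in shUCHL1 and 3 in shHSPA8, against the same backgrounds. VPS16, a subunit shared by the HOPS and CORVET tethers, was lower in shUCHL1 (log2 fold change -0.60, adjusted p = 0.00736) and in shHSPA8 (log2 fold change -0.64, adjusted p = 0.00498), with 48.8 and 49.3 CPM in shUCHL1, 48.7 and 46.4 CPM in shHSPA8 and 70.8 and 77.6 CPM in shCON. VPS11, its partner, was lower (log2 fold change -0.45, adjusted p = 0.0163) and PLEKHM1, a RAB7A effector, higher (log2 fold change 0.38, adjusted p = 0.0411) in shHSPA8. Without either shUCHL1 library ATG16L2 and VPS16 lost their calls in shUCHL1 (adjusted p up to 0.0955 and 0.101), while VPS16 kept its call in shHSPA8 in each of the 6 fits without 1 library. TP53INP2 lost its call without either shHSPA8 library (adjusted p up to 0.0704), VPS11 without any one of the 4 knockdown libraries (0.107), PLEKHM1 without these or shCON replicate 1 (0.221) and MAP1LC3C without any one of the 6 (0.179). PLEKHM1 also lost its call with library size alone, DESeq2, no low-count filter, only the lines compared and the length trend removed, and MAP1LC3C with DESeq2 and no low-count filter. VPS11 lost its call with only the lines compared, and with a replicate block VPS11 and PLEKHM1 lost theirs. The medians over the core and fusion lists were 0.17 and -0.04 in shUCHL1 and 0.09 and -0.06 in shHSPA8.

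Of 28 tested mTORC1, AMPK and amino acid sensing genes, 3 were higher (background 8.54%) and 1 lower (background 7.15%) in shUCHL1 against shCON, and 3 were higher (background 8.66%) and none lower (background 6.02%) in shHSPA8. DDIT4, a stress-induced mTORC1 inhibitor, had 62.6 and 65.6 CPM in shUCHL1, 46.1 and 40.1 CPM in shHSPA8 and 29.8 and 31.8 CPM in shCON (log2 fold change 1.06 and 0.49, adjusted p = 0.00129 and 0.0268). SESN2, a leucine sensor that restrains mTORC1, had a log2 fold change of 1.34 in shUCHL1 (adjusted p = 0.00266) and 0.25 in shHSPA8 (adjusted p = 0.389). PRKAB2, an AMPK subunit, was higher and RRAGB, a Rag GTPase, lower in shUCHL1 (log2 fold change 0.60 and -0.74), and MTOR and LAMTOR4, a Ragulator subunit, were higher in shHSPA8 (log2 fold change 0.42 and 0.66). DDIT4 and SESN2 kept their calls in shUCHL1 without any one library. RRAGB lost its call without either shUCHL1 library (adjusted p up to 0.128), and PRKAB2, MTOR and LAMTOR4 without any one of the 4 knockdown libraries (adjusted p up to 0.283, 0.149 and 0.163), PRKAB2 also without shCON replicate 2 and LAMTOR4 without shCON replicate 1. DDIT4 in shHSPA8 lost its call without either shUCHL1 library, shHSPA8 replicate 1 or shCON replicate 1 (adjusted p up to 0.161). With only the lines compared, and with a replicate block, PRKAB2 lost its call in shUCHL1, and DDIT4, MTOR and LAMTOR4 theirs in shHSPA8. PRKAB2 also lost its call with no low-count filter. The list's median was 0.01 in shUCHL1 and -0.04 in shHSPA8.

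Of 27 lysosomal genes of the TFEB-type CLEAR network, 3 were higher in shUCHL1 (background 8.54%) and 4 in shHSPA8 (background 8.66%) against shCON, and none was lower (backgrounds 7.15% and 6.02%), with medians of 0.04 and 0.18. SCARB2, a lysosomal membrane receptor, was higher in both lines (log2 fold change 0.75 and 0.53), as was GPNMB, a membrane glycoprotein (0.54 and 1.34), while CTSD was higher in shUCHL1 (0.54) and PSAP and ATP6V0E1 in shHSPA8 (0.51 and 0.58). Of 12 other transcription factors of autophagy genes, FOXO1, NFE2L2 and CEBPB were called higher in both lines and DDIT3, which encodes CHOP, in shUCHL1, that is 4 in shUCHL1 (background 8.54%) and 3 in shHSPA8 (background 8.66%), with none lower. FOXO1, a direct activator of autophagy genes, had 69.6 and 69.9 CPM in shUCHL1, 85.0 and 91.6 CPM in shHSPA8 and 52.2 and 46.2 CPM in shCON (log2 fold change 0.50 and 0.84, adjusted p = 0.0172 and 0.00205). Without any one library, SCARB2 kept its call in shUCHL1, and GPNMB, FOXO1, NFE2L2 and CEBPB kept theirs in shHSPA8. Without either shUCHL1 library, GPNMB, CTSD, FOXO1, NFE2L2 and DDIT3 lost their calls in shUCHL1 (adjusted p up to 0.295), and CEBPB lost its call there without shUCHL1 replicate 2 (0.0661). Without any one of the shHSPA8 libraries CTSD, NFE2L2 and DDIT3 lost theirs too, as did CTSD and DDIT3 without shCON replicate 1 and NFE2L2 without shCON replicate 2. In shHSPA8, PSAP lost its call without shHSPA8 replicate 1 (0.0573), SCARB2 without either shUCHL1 library or shHSPA8 replicate 2 (0.0827) and ATP6V0E1 without any one of the 4 knockdown libraries (0.0813). With only the lines compared, CTSD and NFE2L2 lost their calls in shUCHL1, and SCARB2 and ATP6V0E1 theirs in shHSPA8. CTSD in shUCHL1 (edgeR adjusted p = 0.0474) also lost its call with RLE size factors and with no low-count filter. With a replicate block GPNMB, CTSD, FOXO1, NFE2L2 and DDIT3 lost their calls in shUCHL1. The median over the 12 transcription factors was 0.24 in shUCHL1 and 0.25 in shHSPA8.

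The spread between the libraries of a line was uneven. The largest replicate difference among the 43 autophagy genes was 0.31 (log2) in shUCHL1, 0.67 in shHSPA8, where it belonged to EPG5, and 0.84 in shCON, where it belonged to TFEB. In shCON, replicate 2 minus replicate 1 had a median of 0.25 over the 15 autophagy genes with an implied length under 2 kb and -0.10 over the 28 longer ones. In shHSPA8 these medians were -0.06 and 0.07, and in shUCHL1 0.01 and -0.02. Over all 12665 genes, Spearman's rho of the replicate difference with implied length was -0.26 in shUCHL1, 0.46 in shHSPA8 and -0.46 in shCON, given as a description across genes of single library pairs. Among the short genes, GABARAP, MAP1LC3A and GABARAPL2 were higher in shCON replicate 2 than in shCON replicate 1, and among the long ones RB1CC1 and EPG5 were lower. Other genes went against this: the short BECN1, GABARAPL1 and ATG3 were lower in shCON replicate 2. Long genes that were higher there include ATG9A, ULK1, AMBRA1 and TFE3.

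**Figure D5:**
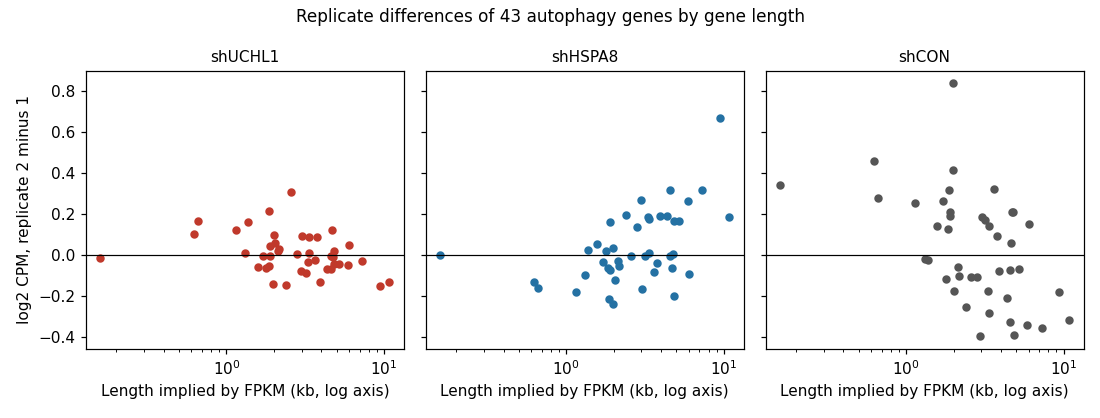
Replicate 2 minus replicate 1 in log2 CPM (y axis) of the 43 autophagy genes against the length implied by the deposited FPKM (x axis, kb, log scale), in shUCHL1, shHSPA8 and shCON. The shUCHL1 points stay within 0.31 of 0, and the shCON points reach 0.84.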

How the data were processed

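RNA of 6 libraries was prepared with an RNeasy kit and the SMARTER mRNA-Seq kit, per the labels' protocols, and the submitters' processing notes name Trimmomatic 0.36. Aligner, counter, build and strandedness: not given in the sources used here. The authors deposited, per the file headers, 1 table of 33229 entries with an FPKM value and a read count per library, as well as a log2 ratio and a p-value for each pair of lines, which are the authors' own; 16599 entries hold values. Between 1014 and 1117 read counts per library carry a decimal fraction, so the deposited counts were taken to be estimated counts (expected counts) and rounded. Fractions occur for BECN1, ATG7 and ATG4D in all 6 libraries, for SQSTM1 in 3 and for RAB7A in 1, so their reads may be shared with other genes. EEF1A1 and the Atg8 genes of the set carry no fraction in any library. Without a known strand setting, reads of a gene and an antisense partner cannot be told apart, and Atg8 and other families with near-identical copies are uncertain.

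Gene IDs were checked against the RefSeq gene table (16599 of 16599 found), and no coordinates or sequences were used. Counts were tested with edgeR 4.0.16 (R 4.3.3): filterByExpr, TMM factors (0.966 to 1.04), glmQLFit and glmQLFTest over all 6 libraries, with Benjamini-Hochberg adjustment over 12665 genes and a threshold of 0.05. The standard error is the size of the log2 fold change over the root of F. The deposited FPKM served only for levels per length and for implied length. DESeq2 1.42.0 was an alternative test. The fit was tested on simulated data, where 66 of 66 genes changed 4-fold were recovered for shUCHL1 against shCON, with 10 false calls among 12227 genes. The simulation gave a gene the same spread in all lines and no length trend, unlike the real libraries. Its rates may thus not carry over to them.

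The members and lists were chosen with earlier results of these data known. Values per library are given for members called in at least 1 comparison and for LAMP2, EEF1A1, the Atg8 genes, SQSTM1, BECN1, ULK1 and the MiT/TFE factors, and up to 4 called genes with the lowest p are named per list and comparison with shCON. NBR1, ATG10, ATG12, ATG5, ATG4D and EPG5 were added after their values were seen. Alternatives were other normalizations, DESeq2, other filters, a fit of only the lines compared, a replicate block, a length correction and leaving out each library.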

Additional observations from a re-analysis of the deposited data

Results flagged for a closer look

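For 4 autophagy genes the effects of the knockdowns differed, by the direct test of shUCHL1 against shHSPA8, which is the difference of their effects against the shared shCON. They are 4 of 43 (9.3%), against 14.6% of all genes tested, so such calls were not more frequent in the set. The direct log2 difference was 0.62 for ATG4C, 0.48 for ATG14 and 0.46 for GABARAPL1, each higher in shUCHL1 than in shHSPA8, and -0.49 for RAB7A, lower in shUCHL1 (edgeR adjusted p = 0.0223, 0.0418, 0.0232 and 0.0217). With DESeq2 and with no low-count filter the ATG14 call was lost (adjusted p = 0.0953 and 0.0535). All 4 calls were lost without any one of the 4 knockdown libraries, where the adjusted p ranged up to 0.191 for ATG4C, 0.316 for ATG14, 0.253 for GABARAPL1 and 0.189 for RAB7A. With 2 libraries per line, no library could be tested as an outlier.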

How the results depend on the processing

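Of 1806 estimates for the autophagy genes over all alternatives, 78 lost a call, 35 gained one and 1693 kept a call or stayed uncalled. Only the few called genes could lose a call. In the main fit, 37 of 43 genes were uncalled in shUCHL1 against shCON, 40 in shHSPA8 against shCON and 39 in shUCHL1 against shHSPA8. The 1693 are thus mostly estimates that stayed uncalled. No called estimate changed sign, and 101 uncalled estimates changed sign and stayed uncalled. Leaving out 1 library moved the number of genes called to 528 to 2615 in shUCHL1 against shCON (1987 with all libraries), 920 to 2416 in shHSPA8 against shCON (1859) and 257 to 3083 in shUCHL1 against shHSPA8 (1843). The autophagy genes called higher then numbered 0 to 3, 0 to 1 and 0 to 6, and those called lower 0 to 6, 0 to 3 and 0 to 2. Without either shUCHL1 library no autophagy gene was called in shUCHL1 against shCON. The cause was not tested.

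In shUCHL1 against shCON, the autophagy genes called higher fell to 0 with DESeq2, with no low-count filter and with only the lines compared, and numbered 5 with the length trend removed, where NBR1, ATG12 and GABARAPL2 were added. DESeq2 and the fit with no filter each kept EEF1A1, RAB7A and OPTN. In shHSPA8 against shCON, 1104 genes were called with only the lines compared, 0 autophagy genes were called higher with DESeq2 and with only the lines compared, and 1 lower with the latter fit. In shUCHL1 against shHSPA8, 3116 genes were called with only the lines compared and 2896 with the length trend removed. There the autophagy genes called higher were 7 with library size alone, 6 with only the lines compared and 7 with the length trend removed, and those called lower 2 with RLE size factors, 2 with only the lines compared and 3 with the length trend removed. With only the lines compared, NBR1, ATG2B and ATG4D were added as higher and ATG10 as lower in shUCHL1. The cause was not tested. Library size alone moved the share of calls that were higher to 68.1% from 54.5% in shUCHL1 against shCON and to 64.4% from 42.6% in shUCHL1 against shHSPA8, where the median of all genes moved to 0.12 from 0.02 (log2).

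The labels give no shared origin for the same replicate number in different lines. Same-numbered deviations correlated at -0.20 between shUCHL1 and shHSPA8, 0.22 between shUCHL1 and shCON and -0.50 between shHSPA8 and shCON. These correlations differ in sign, and whether the numbers pair the libraries is not known. With a replicate block, 1230, 1131 and 923 genes were called in shUCHL1 against shCON, shHSPA8 against shCON and shUCHL1 against shHSPA8, with 0 autophagy genes higher in each and 1, 1 and 0 lower (RAB7A in shUCHL1 and ATG4C in shHSPA8). Both of these calls lay just below the threshold of 0.05 (edgeR adjusted p = 0.0459 for RAB7A and 0.0499973 for ATG4C).

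Depth limits TFEB, with 72 to 133 reads per library, and MAP1LC3C, with 0 to 16 reads. The chi-square per degree of freedom between the libraries of a line, 2.39 in shUCHL1, 12.1 in shHSPA8 and 22.7 in shCON, exceeds counting error.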
